A study of Homo sapiens with 2 samples.

Results

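The genes described here are 35 genes of sterol and fatty acid synthesis in H9 cells, set out by the step of the pathway they serve: 7 genes from acetyl groups to farnesyl diphosphate (the mevalonate steps), 11 late sterol genes from squalene to cholesterol, 4 regulators, 8 fatty acid genes, 2 genes of sterol transport and storage, and 3 genes that release cholesterol in the lysosome. They were chosen by symbol from pathway knowledge, with earlier results of these data known, and do not hold every enzyme of the routes. Further genes from lists given by name, chosen in the same way, are described last, and others are not analysed here. All 35 were found among the 22474 genes listed, and all 35 reached 5 CPM (counts scaled to the total gene counts) in at least 1 library, the floor used throughout. LIPA and SREBF1 passed that floor in the ESC library alone.

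H9 is an established line of human embryonic stem cells. The compared states were ffEPSCs, feeder-free extended pluripotent stem cells converted from H9, and the H9 ESCs themselves, and the question was how expression differs between them. Single cells were read with Smart-seq2, which copies and amplifies full-length polyadenylated RNA without molecular barcodes. There were 25 ffEPSC cells, which together gave 374101290 gene counts (12507469 to 17811209 each), and 16 ESC cells, which gave 265412149 (11714517 to 19965639 each). Each state was 1 deposited sample of 1 line, so no test between states was possible. The sources used here do not give culture media, passage or the number of cultures behind each library.

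Cells build cholesterol from acetyl-CoA through mevalonate, isoprenoids, squalene and lanosterol, and fatty acids from the same acetyl-CoA. Transcription of most of these enzymes is driven by the SREBP factors, encoded by SREBF1 and SREBF2, which the escort protein SCAP carries from the endoplasmic reticulum to the Golgi for cleavage when sterols are low. INSIG proteins hold SCAP back when sterols are high. Cholesterol taken up in lipoproteins enters the cell by another route, through the lysosome, where acid lipase (LIPA) frees it from its esters and NPC2 and NPC1 pass it out.

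Promoter sequences are shown for members whose ratios were largest and smallest, because SREBP works at promoters together with the factor NF-Y, whose site is CCAAT. Each window runs from 250 bases before the RefSeq start to 50 after it (GRCh38.p14), is written 5′ to 3′ on the gene's strand, and has CCAAT or its reverse complement ATTGG in capitals, together with the sterol element TCACNCCAC, reverse complement GTGGNGTGA. The 5 genes shown first had ffEPSC levels at least 2-fold below ESC, ACAT2, another such gene, has no entry, and NPC1 and FADS1 were the members with the smallest ratios that have an entry. SREBF2 was added after its sequence was seen, as the member whose window holds the sterol element.
LIPA promoter, chr10:89251726-89252025, minus strand: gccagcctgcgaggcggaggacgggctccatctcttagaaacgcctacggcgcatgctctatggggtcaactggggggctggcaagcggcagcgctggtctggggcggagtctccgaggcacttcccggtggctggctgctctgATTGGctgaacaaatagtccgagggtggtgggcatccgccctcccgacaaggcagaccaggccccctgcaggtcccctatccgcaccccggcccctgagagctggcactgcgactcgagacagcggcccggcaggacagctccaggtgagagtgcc
ACSS2 promoter, chr20:34876362-34876661, plus strand: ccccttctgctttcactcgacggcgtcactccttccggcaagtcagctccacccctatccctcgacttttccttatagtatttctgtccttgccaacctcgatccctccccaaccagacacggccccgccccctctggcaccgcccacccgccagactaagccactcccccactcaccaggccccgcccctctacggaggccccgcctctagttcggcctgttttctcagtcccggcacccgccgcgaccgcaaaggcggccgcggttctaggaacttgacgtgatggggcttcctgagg
SC5D promoter, chr11:121292521-121292820, plus strand: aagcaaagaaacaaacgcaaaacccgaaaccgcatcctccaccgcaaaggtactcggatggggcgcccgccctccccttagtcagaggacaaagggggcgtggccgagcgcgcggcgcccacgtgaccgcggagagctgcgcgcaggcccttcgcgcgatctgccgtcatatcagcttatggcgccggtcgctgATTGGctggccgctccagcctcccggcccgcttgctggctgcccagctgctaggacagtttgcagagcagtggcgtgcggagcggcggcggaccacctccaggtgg
STARD4 promoter, chr5:111512486-111512785, minus strand: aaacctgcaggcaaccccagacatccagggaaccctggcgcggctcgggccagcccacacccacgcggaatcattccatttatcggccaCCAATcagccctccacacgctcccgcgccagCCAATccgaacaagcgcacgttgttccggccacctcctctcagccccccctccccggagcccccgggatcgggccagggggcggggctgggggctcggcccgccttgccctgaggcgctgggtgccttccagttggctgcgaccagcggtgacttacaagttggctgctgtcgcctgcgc
MVD promoter, chr16:88663042-88663341, minus strand: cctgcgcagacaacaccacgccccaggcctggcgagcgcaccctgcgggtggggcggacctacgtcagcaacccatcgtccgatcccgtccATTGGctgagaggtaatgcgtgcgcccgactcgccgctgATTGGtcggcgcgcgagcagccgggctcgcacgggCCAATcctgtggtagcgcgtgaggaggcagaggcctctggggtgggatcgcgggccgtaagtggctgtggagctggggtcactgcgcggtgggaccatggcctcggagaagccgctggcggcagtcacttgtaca
NPC1 promoter, chr18:23586457-23586756, minus strand: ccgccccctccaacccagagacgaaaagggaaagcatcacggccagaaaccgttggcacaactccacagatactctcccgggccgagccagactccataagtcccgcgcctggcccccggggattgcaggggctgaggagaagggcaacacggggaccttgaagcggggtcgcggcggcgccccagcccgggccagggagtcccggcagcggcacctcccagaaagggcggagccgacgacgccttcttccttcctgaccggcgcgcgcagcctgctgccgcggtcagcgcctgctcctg
FADS1 promoter, chr11:61816954-61817253, minus strand: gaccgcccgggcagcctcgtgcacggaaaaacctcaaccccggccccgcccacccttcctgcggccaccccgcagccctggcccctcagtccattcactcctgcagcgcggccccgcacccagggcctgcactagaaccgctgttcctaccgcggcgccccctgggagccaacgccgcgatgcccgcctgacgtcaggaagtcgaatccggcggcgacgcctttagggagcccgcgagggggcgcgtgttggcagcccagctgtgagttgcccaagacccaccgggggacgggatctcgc
SREBF2 promoter, chr22:41832855-41833154, plus strand: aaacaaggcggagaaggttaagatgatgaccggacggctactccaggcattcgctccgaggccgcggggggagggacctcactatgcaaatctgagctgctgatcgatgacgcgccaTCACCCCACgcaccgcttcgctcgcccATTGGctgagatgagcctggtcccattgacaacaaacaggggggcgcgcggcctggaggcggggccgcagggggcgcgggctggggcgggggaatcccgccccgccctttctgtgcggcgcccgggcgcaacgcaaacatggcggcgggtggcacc

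The windows of LIPA, SC5D, STARD4, MVD and SREBF2 held a CCAAT box, 3 of them in MVD (starting 159, 120 and 85 bases before the start) and 2 in STARD4. The windows printed for ACSS2, NPC1 and FADS1 held none and are all in lower case; ACSS2 has a further listed start, not printed, with a box. RefSeq promoters were listed for 31 members, and 24 of the 31 (77.4%) had a CCAAT box at some listed start, against 39.7% of 27305 genes with an entry and 44.2% of the 8556 of them that reached the floor. By step this was 5 of 6 mevalonate genes, 8 of 9 late sterol genes, 2 of 4 regulators, 5 of 7 fatty acid genes, 2 of 2 transport and storage genes and 2 of 3 lysosomal genes. In SREBF2 the sterol element TCACNCCAC began 133 bases before the start and the ATTGG 106 bases before it. That spelling occurred in 1 of 31 members (3.23%) and in 1.39% of all genes. Other spellings of SREBP sites were not searched. The GC box GGGCGG, searched on both strands, was in 30 of 31 members (96.8%), 48.3% of all genes and 78.1% of genes that reached the floor. The E-box CACGTG was in 4 members (12.9%), 8.77% of all genes and 13.1% of those that reached the floor. In LIPA the printed start is the one of 3 listed that most coding transcripts of GENCODE begin near. ACAT2, FDFT1, SQLE and FASN had no entry. These are matches of letters, and binding was not measured.

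Of the 35 genes, 29 were lower in the ffEPSC library and 6 were higher, with a median log2 ratio of -0.58; 47.1% of all genes were lower and 52.9% higher. Ratios are ffEPSC over ESC on summed counts scaled to CPM, after adding 1 CPM. All genes here means the 10825 that reached the floor, whose median was 0.04. At least 2-fold lower were 6 members: LIPA, ACSS2, SC5D, ACAT2, STARD4 and MVD, against 5.84% of all genes. At least 2-fold higher were 0 members, against 8.30% of all genes. LIPA and SREBF1 passed the floor in the ESC library alone and so could only be lower over all cells. Both are among the 29 lower members, and LIPA is among the 6. Between the 5th and 95th percentile all genes ran from -1.10 to 1.31, so besides LIPA only ACSS2 lay below that range. 

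Each cell name has a set number (1, 2, 3 or 4), with no statement of what a set is, and cells of both states occur only in sets 1 and 3. Within set 1 (3 ffEPSC and 7 ESC cells) 29 members were lower, 12 at least 2-fold, with a median of -0.86, against 46.7% and 11.6% of all genes. Within set 3 (2 ffEPSC and 9 ESC cells) 30 members were lower, 9 at least 2-fold, with a median of -0.65, against 52.6% and 15.5% of all genes. In all, 24 of 35 members were lower over all cells and within both sets. The same share over all genes was not computed, so this count describes the members only. SOAT1 was at least 2-fold higher in both sets, where 14.4% and 10.1% of all genes were. Between sets of 1 state the medians were smaller in size: set 3 over set 1 of the ESCs had a median of 0.05 with 12 of 35 lower (48.4% of all genes), and set 4 over set 2 of the ffEPSCs had -0.23 with 23 of 35 lower (51.5% of all genes).

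**Figure D1:**
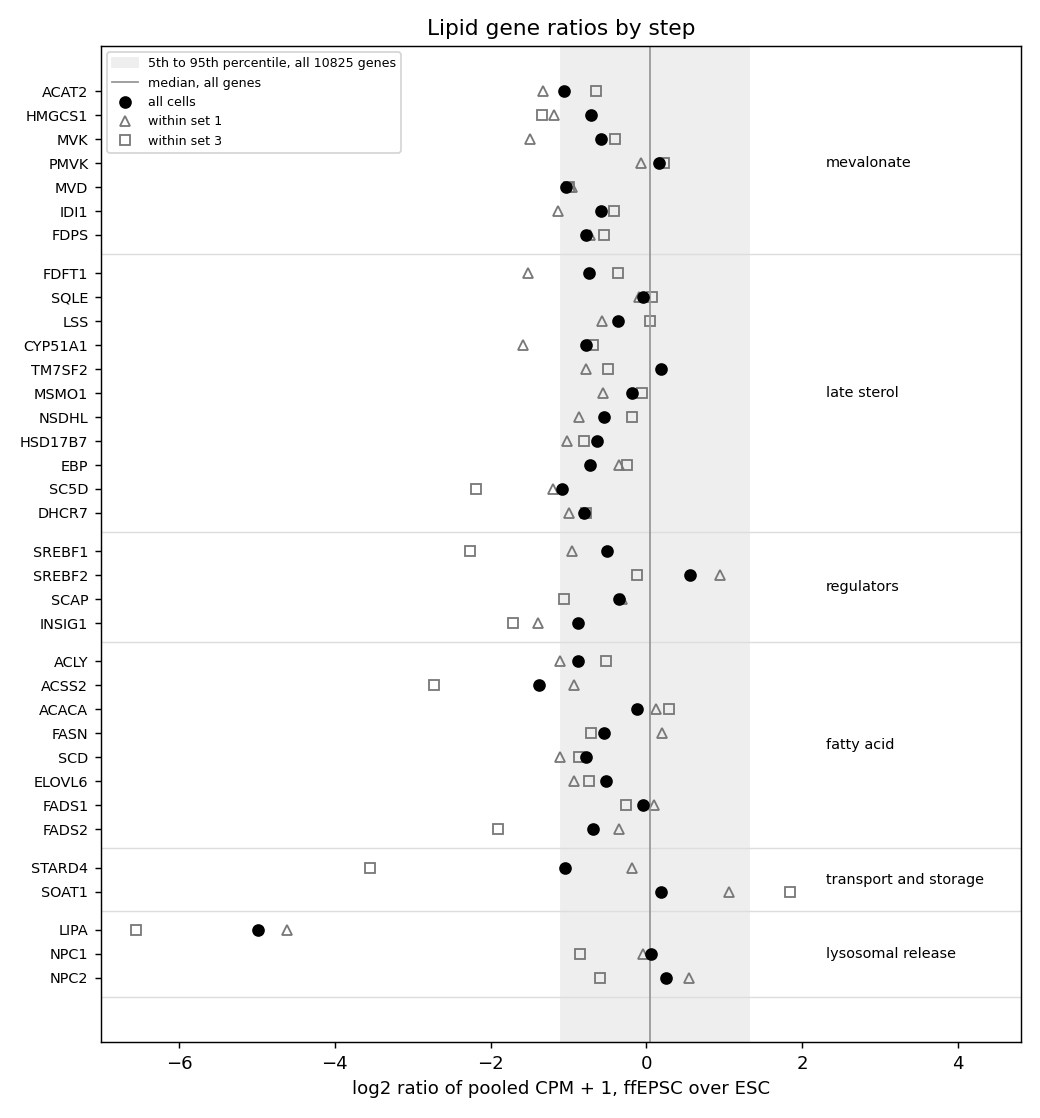
Log2 ratio of pooled CPM + 1, ffEPSC over ESC (x axis), for the 35 genes by step (y axis); filled circles are all cells, triangles cells of set 1 and squares cells of set 3, the grey band is the 5th to 95th percentile of all 10825 genes over all cells and the line their median. Most circles lie left of the line and inside the band, from -1.10 to 1.31, with LIPA at -4.98 far outside it.

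Some facts of the libraries stand beside every result. In ffEPSCs chromosomes 5, 11, 14, 20 and 22 stood above the other autosomes, with median log2 ratios of 0.292 to 0.441 over genes with 20 CPM. Of the 10 members there, 7 were lower (median -0.70), against 23.8% of 1945 genes of those chromosomes. Of the 25 members elsewhere 22 were lower (median -0.58), against 52.2% of 8880 other genes. In 5 ffEPSC cells the shift of these chromosomes was small or absent. They include both ffEPSC cells of set 3 but not every ffEPSC cell of set 1, so set 3 and those 5 cells are not separate checks. In 4 of the 16 ESC cells POU5F1 was under 300 CPM, and these were the shallowest cells (11714517 to 14683949 counts, the others from 16349317); without them the members' median was -0.65. All 7 pluripotency markers reached 5 CPM in both libraries, and the 5 markers of naive cells reached it in the ffEPSC library alone (331 CPM summed in ffEPSCs, 7.69 CPM in ESCs). Of 6 fibroblast or feeder markers 3 were listed, summing to 186 CPM in ffEPSCs (32.5 to 406 per cell) and 410.3 CPM in ESCs (60.4 to 634), and COL3A1, LUM and DCN were not listed. Markers of cells rich in lipid synthesis were also lower in ffEPSCs. Of 4 adipocyte markers LPL alone was listed, at 0.529 CPM in ffEPSCs and 11.4 CPM in ESCs (0 to 47.7 per ESC cell). Of 4 endoderm and hepatocyte markers 2 were listed, summing to 3.11 CPM in ffEPSCs and 14.0 CPM in ESCs (0.436 to 28.5 per ESC cell). LPL and AFP, an endoderm and hepatocyte marker, reached 5 CPM in the ESC library alone. The part of these differences in the results was not tested. No column name was shared between the libraries. Where a library is summed over cells, fewer cells with a transcript and less transcript per cell cannot be told apart, so values over cells are given too.

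Of the 7 mevalonate genes 6 were lower in ffEPSCs, 2 of them by 2-fold or more, and the median log2 ratio was -0.71 (set 1, -1.14; set 3, -0.54). ACAT2, the cytosolic thiolase that joins acetyl-CoA units, ran over cells from 265 through a median of 392 to 829 CPM in ffEPSCs, against 433, 873 and 1350.2 CPM in ESCs. All 25 ffEPSC cells lay below the ESC median and 15 below the lowest ESC cell. Pooled levels were 432 CPM in ffEPSCs (95% interval 429 to 434) and 903 CPM in ESCs (899.6 to 907), a log2 ratio of -1.06 (set 1, -1.33; set 3, -0.65). Intervals here cover counting error only, since amplified reads are not independent molecules, and 98.4% of ffEPSC and 98.5% of ESC counts were even, as if each fragment had entered with both its reads, so they are too narrow. ACAT2 overlaps TCP1 on the opposite strand (768 CPM in ffEPSCs, 743 CPM in ESCs), and whether counting used strand is not given.

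MVD, the decarboxylase that makes isopentenyl diphosphate, ran from 12.2 through 48.0 to 121 CPM in ffEPSC cells, against 0, 82.3 and 312 CPM in ESC cells. The states overlapped, with 21 of 25 ffEPSC cells below the ESC median. Pooled it was at 51.3 CPM in ffEPSCs and 106 CPM in ESCs, a log2 ratio of -1.03, and -0.96 and -0.99 within sets 1 and 3; it stayed past 2-fold under 4 of 11 other settings. FDPS, which makes farnesyl diphosphate, was the steadiest member over cells: 91.1, 157 and 224 CPM in ffEPSCs (lowest, median, highest), against 179, 249.8 and 353 CPM in ESCs. In FDPS 22 of 25 ffEPSC cells lay below the lowest ESC cell and 12 of 16 ESC cells above the highest ffEPSC cell, a cleaner separation than the pooled log2 ratio of -0.77 shows. Its cell values, and those of HMGCS1, are given because of what they showed.

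HMGCS1, the synthase that commits acetyl units to the mevalonate route, was the least steady of the 7 in ESCs. Its cells ran from 81.9 through 166 to 625 CPM in ffEPSCs, against 70.5, 239 and 1956 CPM in ESCs, and the highest ESC cell held 26.0% of all ESC counts of the gene. Pooled levels of 202 CPM in ffEPSCs and 332 CPM in ESCs gave -0.71, which was -1.19 and -1.34 within sets 1 and 3 but -0.04 without the 4 ESC cells low in POU5F1. Among the kinases and the isomerase, MVK was at 28.9 CPM in ffEPSCs and 43.9 CPM in ESCs (-0.58) and IDI1 at 407 and 609 CPM (-0.58). PMVK was the higher one, at 39.7 CPM in ffEPSCs and 35.3 CPM in ESCs (0.16), with -0.07 within set 1. MVK overlaps MMAB on the opposite strand (58.9 CPM in ffEPSCs, 62.4 CPM in ESCs), so its counts are uncertain.

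Of the 11 late sterol genes 10 were lower in ffEPSCs, 1 by 2-fold or more, and the median was -0.63 (set 1, -0.86; set 3, -0.36). SC5D, the desaturase that acts before the reductase DHCR7, ran from 66.9 through 168 to 443 CPM in ffEPSC cells, against 181, 463 and 934 CPM in ESC cells. All 25 ffEPSC cells were below the ESC median, 14 were below the lowest ESC cell, and 9 ESC cells were above the highest ffEPSC cell. Pooled it stood at 200.3 CPM in ffEPSCs and 427 CPM in ESCs (-1.09, and -1.20 and -2.19 within sets 1 and 3), and it lies on chromosome 11, where the median gene was higher in ffEPSCs (0.327). DHCR7, a terminal reductase of cholesterol synthesis on the same chromosome, ran from 31.8 through 241 to 461 CPM in ffEPSC cells, against 11.6, 395 and 914 CPM in ESC cells. For DHCR7 24 of 25 ffEPSC cells were below the ESC median, and pooled levels of 244 CPM in ffEPSCs and 425 CPM in ESCs gave -0.80.

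FDFT1, squalene synthase, was the most abundant member per length in both libraries. It was at 821 CPM in ffEPSCs and 1369 CPM in ESCs (-0.74, and -1.52 and -0.36 within sets 1 and 3). For FDFT1 24 of 25 ffEPSC cells were below the ESC median. EBP, a sterol isomerase, was at 86.5 CPM in ffEPSCs and 144 CPM in ESCs (-0.72), with 14 ffEPSC cells below the lowest ESC cell. Within sets 1 and 3 the ratio of EBP was smaller in size, at -0.35 and -0.25. The lanosterol demethylase CYP51A1 was at 8.63 CPM in ffEPSCs and 15.5 CPM in ESCs (-0.78). Its pseudogenes CYP51A1P1 and CYP51A1P2 took 1.58 and 2.06 CPM in ffEPSCs and 2.68 and 4.64 CPM in ESCs, so reads may be split between the copies. HSD17B7, a ketoreductase, and NSDHL, a dehydrogenase, both of the demethylation of sterols, had ratios of -0.63 and -0.55. LSS, which closes lanosterol's rings, had -0.36, but 0.13 when only the 5 ffEPSC cells with little or no chromosome-wide difference were used. The methyl oxidase MSMO1 was at 417 CPM in ffEPSCs and 474 CPM in ESCs (-0.18). SQLE, squalene epoxidase and a rate-limiting enzyme, barely differed, at 344 CPM in ffEPSCs and 356 CPM in ESCs (-0.05), and its sign turned under 4 of 11 other settings. TM7SF2, a sterol reductase, was the higher one over all cells (74.0 CPM in ffEPSCs, 65.4 CPM in ESCs, 0.18) but was lower within set 1 (-0.77) and set 3 (-0.50). It overlaps VPS51 on the same strand.

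**Figure D2:**
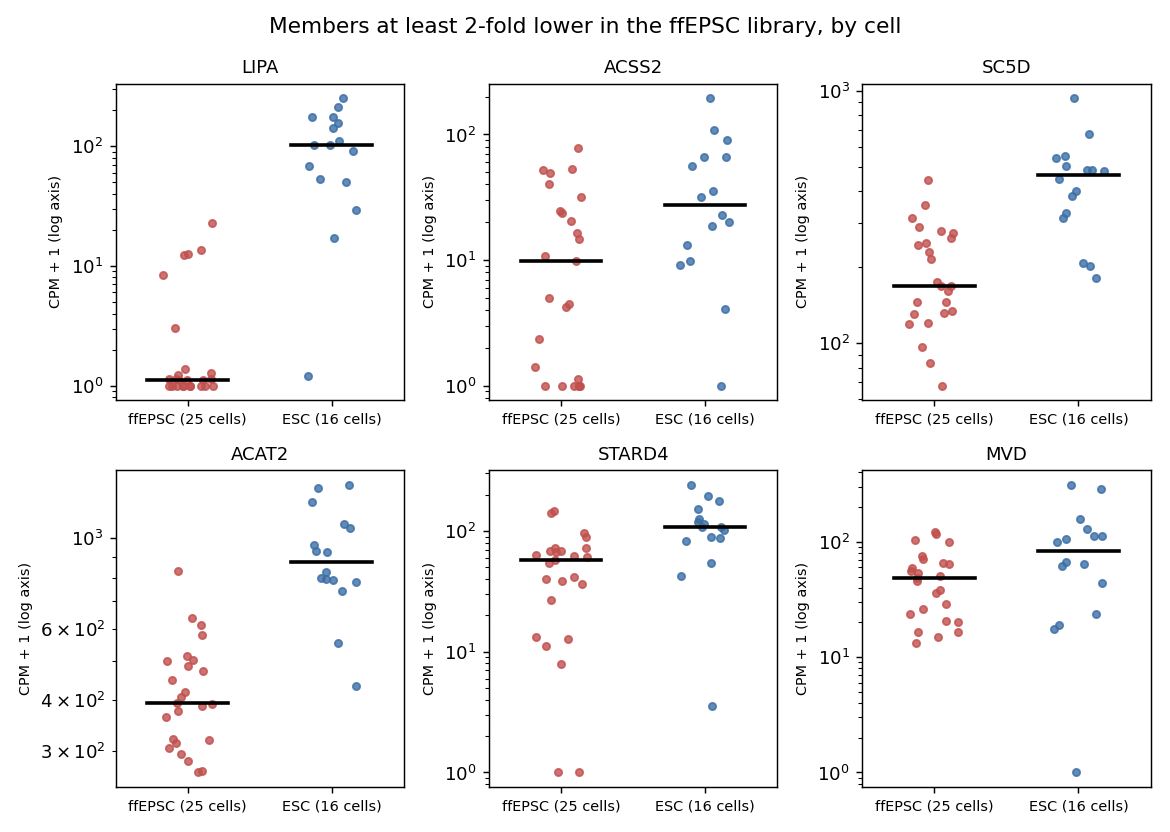
CPM + 1 per cell (y axis, log scale) of the 6 genes with ffEPSC levels at least 2-fold below ESC, ffEPSC cells left and ESC cells right; each point is a cell and bars are medians over cells. For ACAT2 and SC5D all 25 ffEPSC points lie below the ESC median bar, for MVD 21 do, and LIPA reaches 1 CPM in 6 ffEPSC cells.

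Among the 4 regulators 3 were lower in ffEPSCs and 0 reached 2-fold, and the median was -0.43 (set 1, -0.63; set 3, -1.38). INSIG1, the sterol sensor partner that retains SCAP and is itself an SREBP target, ran from 10.2 through 107 to 243 CPM in ffEPSC cells, against 19.3, 141 and 696 CPM in ESC cells. The states overlapped, with 20 of 25 ffEPSC cells below the ESC median and 4 ESC cells above the highest ffEPSC cell. Pooled it was at 109 CPM in ffEPSCs and 201 CPM in ESCs (-0.88), at -1.39 and -1.71 within the sets, and at -0.40 between medians over cells. SREBF2, whose product chiefly drives sterol genes, was higher over all cells, with 11.9, 45.0 and 144 CPM in ffEPSCs (lowest, median, highest), against 0, 29.5 and 65.9 CPM in ESCs. Pooled levels of 48.2 CPM in ffEPSCs and 32.3 CPM in ESCs gave 0.56, with 0.94 within set 1 but -0.12 within set 3. It lies on chromosome 22, whose genes had the largest chromosome-wide median (0.441). The ffEPSC cells of set 3 were among those with little or no chromosome-wide difference, and its part in these values was not tested. SCAP was at 33.0 CPM in ffEPSCs and 42.1 CPM in ESCs (-0.35). SREBF1, whose product chiefly drives fatty acid genes, was low in both, at 4.56 CPM in ffEPSCs and 6.90 CPM in ESCs (-0.51). It had no count in 6 of 25 ffEPSC cells and 4 of 16 ESC cells. SREBF1, SCAP and INSIG1 were lower over all cells and within both sets, and SREBF2 was higher over all cells and in set 1 but not in set 3. These RNA levels carry no measure of SREBP cleavage.

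All 8 fatty acid genes were lower in ffEPSCs over all cells, 1 of them by 2-fold or more, and the median was -0.62 (set 1, -0.64; set 3, -0.72). Within set 1, 5 of the 8 were lower. ACSS2, which makes acetyl-CoA from acetate, ran from 0 through 8.90 to 77.5 CPM in ffEPSC cells, against 0, 26.3 and 194 CPM in ESC cells. It was at 0 in 6 ffEPSC cells and 1 ESC cell, and the states overlapped over most of their range. Pooled it was at 16.9 CPM in ffEPSCs (16.4 to 17.3) and 45.6 CPM in ESCs (44.8 to 46.5), a ratio of -1.38, or -0.93 and -2.73 within sets 1 and 3; the ESC sets themselves differed by 1.04 (set 3 over set 1). ACLY, which makes acetyl-CoA from citrate, ran from 95.7 through 175 to 311 CPM in ffEPSC cells, against a median of 319 and a highest value of 619 CPM in ESC cells, with 2 ffEPSC cells below the lowest ESC cell. All 25 ffEPSC cells lay below the ESC median of ACLY, and pooled levels of 198 CPM in ffEPSCs and 365 CPM in ESCs gave -0.88. Both sources of cytosolic acetyl-CoA in the list were thus lower.

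SCD, the stearoyl-CoA desaturase, was at 487 CPM in ffEPSCs and 839 CPM in ESCs (-0.78), with 24 of 25 ffEPSC cells below the ESC median; its pseudogene SCDP1 took 5.14 and 12.5 CPM. The elongase ELOVL6 was at 119 CPM in ffEPSCs and 171 CPM in ESCs (-0.52). FASN, fatty acid synthase, was at 32.7 CPM in ffEPSCs and 48.4 CPM in ESCs (-0.55), but higher within set 1 (0.20). ACACA, the carboxylase that supplies malonyl-CoA to it, differed little (56.2 CPM in ffEPSCs, 61.2 CPM in ESCs, -0.12) and was higher within both sets. The neighbouring desaturase genes FADS1 and FADS2 on chromosome 11 had unlike ratios: FADS1 was at 186 CPM in ffEPSCs and 192 CPM in ESCs (-0.05), and FADS2 at 55.8 and 90.7 CPM (-0.69). They overlap on opposite strands, and FADS2 also overlaps FEN1 (295 CPM in ffEPSCs, 263 CPM in ESCs), so their counts are uncertain.

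The 2 genes of transport and storage differed from each other. STARD4, a carrier that moves cholesterol between membranes, ran from 0 through 56.1 to 147 CPM in ffEPSC cells, against 2.55, 107 and 241 CPM in ESC cells. In STARD4 23 of 25 ffEPSC cells lay below the ESC median, and pooled levels of 53.4 CPM in ffEPSCs and 111 CPM in ESCs gave -1.04, which stayed past 2-fold under 7 of 11 other settings. The sets disagreed in size, with -0.18 within set 1 and -3.55 within set 3, where the ffEPSC value rests on 2 cells. SOAT1, which esterifies cholesterol for storage, ran from 0 through 9.16 to 71.8 CPM in ffEPSC cells, against 0, 10.4 and 42.6 CPM in ESC cells. Pooled levels of 14.9 CPM in ffEPSCs and 13.1 CPM in ESCs gave 0.18, with 1.06 and 1.84 within sets 1 and 3 but -0.16 between medians over cells, so no direction held.

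LIPA, the acid lipase of the lysosome, had the lowest ratio of the members. Over cells it ran from 0 through 0.123 to 21.6 CPM in ffEPSCs, against 0.206, 101 and 251 CPM in ESCs. It reached 1 CPM in 6 of 25 ffEPSC cells (24.0%, Clopper-Pearson 95% interval 9.36 to 45.1) and in 15 of 16 ESC cells (93.8%, 69.8 to 99.8). These intervals describe the cells of 1 library per state and are no test between the states. The 6 ffEPSC cells held 2.02 to 21.6 CPM, the other 19 at most 0.384 CPM and 10 of them no count, while the 15 ESC cells held 16.2 to 251 CPM. Thus 14 of 16 ESC cells were above every ffEPSC cell, and 2 ESC cells, at 0.206 and 16.2 CPM, lay within the ffEPSC range. Pooled levels were 2.51 CPM in ffEPSCs (2.35 to 2.68) and 109.6 CPM in ESCs (108 to 111), a log2 ratio of -4.98, and ESCs were 43.6-fold over ffEPSCs (40.9 to 46.6). Within sets 1 and 3 the ratio was -4.61 and -6.55, and its smallest size under any setting was -3.93, with 5 CPM added. Cells of sets 1, 2 and 4 were among the 6 ffEPSC cells with LIPA.

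The other lysosomal members did not share this. NPC2, the soluble carrier that takes cholesterol from the lipase, ran from 70.3 through 195 to 312 CPM in ffEPSC cells, against 95.2, 141 and 307 CPM in ESC cells. Pooled it was at 183 CPM in ffEPSCs and 154 CPM in ESCs (0.25), at 0.55 within set 1 and -0.60 within set 3. It lies on chromosome 14 and overlaps ISCA2 on the opposite strand (112 CPM in ffEPSCs, 102 CPM in ESCs), so its counts are uncertain. NPC1, the membrane protein that exports cholesterol, was at 30.9 CPM in ffEPSCs and 29.6 CPM in ESCs (0.06), with -0.05 and -0.85 within the sets. Nor did 12 other measured lysosomal genes of 14 listed: 8 were higher and 4 lower in ffEPSCs, 0 by 2-fold in either direction, and their median was 0.51 (set 1, 0.44; set 3, -0.43).

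In GENCODE version 29 LIPA spans chr10:89213569-89414557 on the minus strand, and IFIT3 and IFIT1 lie within that span on the plus strand. These had few counts: IFIT3 was at 0.182 CPM in ffEPSCs and 0.671 CPM in ESCs, and IFIT1 at 1.21 and 2.64 CPM. Of the 9 other listed genes within 500 kb, 8 were lower in ffEPSCs, a count that includes genes under the floor. Of the 4 that reached the floor 4 were lower, against 47.1% of all genes past the floor. STAMBPL1 reached it in the ESC library alone and so could only be lower. The deubiquitinase gene STAMBPL1 was at 2.43 CPM in ffEPSCs and 14.6 CPM in ESCs (-2.19), and PANK1, a pantothenate kinase gene of coenzyme A synthesis, at 14.5 and 32.8 CPM (-1.12). CH25H, a cholesterol hydroxylase gene next to LIPA, was at 0 in ffEPSCs, which allows up to 0.00802 CPM, and at 1.71 CPM in ESCs. FAS, a death receptor gene, was also at 0 in ffEPSCs and at 0.769 CPM in ESCs. Others differed less: IFIT5 was at 10.4 CPM in ffEPSCs and 14.0 CPM in ESCs, SLC16A12 at 2.74 and 2.36 CPM, and KIF20B at 146 and 179 CPM (-0.29). SLC16A12 was the 1 that was higher. These neighbours were chosen by distance after LIPA's value was seen, so their counts are no test of the region.

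Summed over the 18 synthesis genes of the mevalonate and late sterol steps, a cell held from 2212 through a median of 3406 to 6589 CPM in ffEPSCs, against 2867, 5625 and 9655 CPM in ESCs. Thus 24 of 25 ffEPSC cells lay below the ESC median, 3 below the lowest ESC cell, and 5 ESC cells above the highest ffEPSC cell. Without the 4 ESC cells low in POU5F1 the ESC median was 6110.2 CPM. The 8 fatty acid genes summed from 646 through 1069.5 to 2179 CPM in ffEPSC cells, against 628, 1628 and 2988 CPM in ESC cells, with 23 of 25 ffEPSC cells below the ESC median.

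Cells of the same state differed in their sterol gene level. The Spearman rho of a synthesis gene with the sum of the other synthesis genes had a median of 0.46 over 25 ffEPSC cells and 0.48 over 16 ESC cells, with 17 of 18 genes positive in each. Over all genes past the floor whose levels varied, 47.8% were positive in ffEPSCs (median -0.01, 5th to 95th percentile -0.34 to 0.32) and 51.4% in ESCs (median 0.01, -0.41 to 0.42). Not all synthesis genes varied with the sum: in ffEPSCs FDPS had 0.01, EBP -0.01, SC5D 0.12 and PMVK 0.14. For IDI1 rho was 0.73 in ffEPSCs and 0.83 in ESCs, and for MSMO1 0.68 and 0.88. INSIG1, which is not in the sum, had 0.66 in ffEPSCs and 0.76 in ESCs. SREBF2 had 0.14 in ffEPSCs and 0.26 in ESCs, SREBF1 0.20 and 0.23, and LIPA -0.41 and -0.08. Of the regulators, INSIG1 was thus the one with the highest rho in each library. Fatty acid genes had medians of 0.11 in ffEPSCs and 0.36 in ESCs. Cells share library, amplification and depth, and in ESCs single members varied with depth (rho -0.75 for HMGCS1 and 0.77 for SQLE), so these are descriptions.

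**Figure D3:**
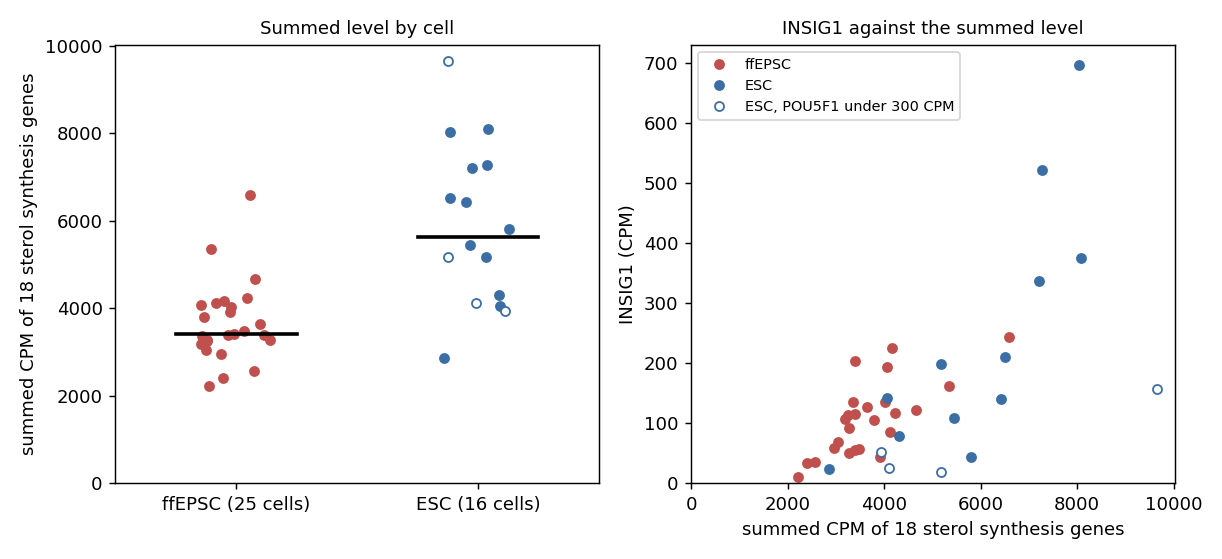
Left, summed CPM of the 18 sterol synthesis genes per cell (y axis) in 25 ffEPSC and 16 ESC cells, bars showing medians of 3406 and 5625 CPM; right, INSIG1 in CPM (y axis) against that sum (x axis). Open circles are the 4 ESC cells with POU5F1 under 300 CPM, and INSIG1 is higher in cells with a higher sum, with rho of 0.66 in ffEPSCs and 0.76 in ESCs.

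The order of the members by level hardly differed between the states. As CPM per kilobase of merged exons, the Spearman rho across the 35 genes was 0.92. FDFT1 was highest in both (158 in ffEPSCs, 263 in ESCs), and MSMO1 (144 and 164), ACAT2 (100.4 and 210.1), IDI1 (93.6 and 140.1) and SCD (90.8 and 156) filled ranks 2 to 5 in each library. MSMO1 and ACAT2 changed places between the libraries, as did IDI1 and SCD. With the longest transcript as length, SCD stood at rank 8 in ffEPSCs and 7 in ESCs. NPC2 then held rank 4 in ffEPSCs and SC5D rank 5 in ESCs. The lowest members in ESCs were SREBF1 (0.568 CPM per kilobase in ffEPSCs, 0.860 in ESCs) and SOAT1 (2.13 and 1.87). LIPA stood at rank 35 in ffEPSCs with 0.512 CPM per kilobase and at rank 19 in ESCs with 22.3.

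**Figure D4:**
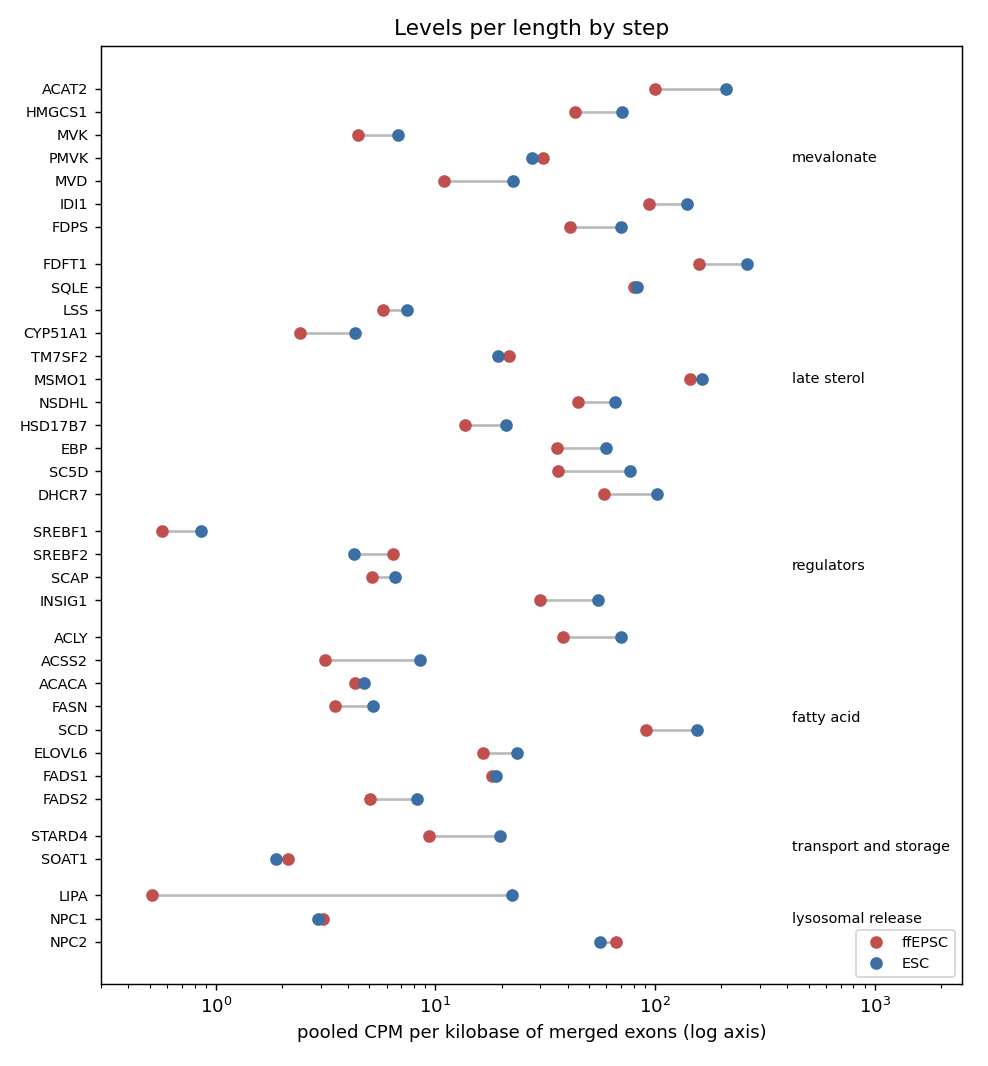
Pooled CPM per kilobase of merged exons (x axis, log scale) of the 35 genes by step, ffEPSC in red and ESC in blue, joined by a line per gene. FDFT1 is highest in both libraries (158 and 263), and LIPA has the longest line, with 0.512 in ffEPSCs and 22.3 in ESCs.

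Other genes of lipid metabolism, from lists given by name, had list medians from -0.16 to 0.16 apart from the lysosomal list above, beside 0.04 for all genes and -0.58 for the 35 members. Of 15 measured genes of the isoprenoid branches and of electron donors (16 listed), 9 were higher and 6 lower in ffEPSCs, with a median of 0.11. The 1 at least 2-fold lower was CYB5A, the cytochrome that passes electrons to sterol and fatty acid desaturases, at 89.5 CPM in ffEPSCs and 254 CPM in ESCs (-1.50, and -2.21 and -1.36 within the sets). Over cells CYB5A ran from 31.2 through 89.2 to 216 CPM in ffEPSCs, against 120.5, 213 and 671 CPM in ESCs. Genes of sterol sensing and enzyme turnover (10 of 10 measured) were 5 higher and 5 lower, 0 by 2-fold, with a median of 0.04.

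Of 9 measured genes of sterol uptake and efflux (13 listed) 5 were higher and 4 lower in ffEPSCs, and the median was 0.16 (set 1, 0.55; set 3, -0.30). At least 2-fold higher was 1, the cholesterol exporter gene ABCA1, at 43.5 CPM in ffEPSCs and 19.6 CPM in ESCs (1.11). Its ratio was 1.78 in set 1 but -0.30 in set 3, so its direction did not hold. Of 21 measured genes of other fatty acid and glycerolipid synthesis (26 listed), 8 were higher and 13 lower, with a median of -0.16. Within sets 1 and 3 that median was -0.18 and -0.57, beside -0.86 and -0.65 for the 35 members. FADS3, a desaturase-like gene beside FADS2, was higher (19.3 CPM in ffEPSCs, 4.13 CPM in ESCs, 1.98, but -0.82 within set 3), and the arachidonate-preferring ligase gene ACSL4 was lower (56.6 and 126 CPM, -1.14). Of 14 measured genes of fatty acid oxidation (15 listed), 8 were higher and 6 lower, with a median of 0.06. CPT1A, the carnitine transferase that gates entry of fatty acids into mitochondria, was at 26.0 CPM in ffEPSCs and 1.37 CPM in ESCs (3.51, and 3.78 and 0.87 within sets 1 and 3). Over cells CPT1A ran from 0 through 24.4 to 51.6 CPM in ffEPSCs, against 0, 0 and 19.8 CPM in ESCs. It lies on chromosome 11, whose median ratio was 0.327. FADS3 and CPT1A passed the floor in the ffEPSC library alone and so could only be higher over all cells. The medians of most of these lists changed sign under another setting.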

How the data were processed

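The authors deposited whole-number gene counts per cell, without normalization, for 1 sample of ffEPSCs and 1 of ESCs; the labels' cell type gives the groups. The protocol was Smart-seq2, per the labels' protocols, which also name an RNA extraction kit without its use on single cells. Per the submitters' processing notes HISAT2 2.2.1, Subread 2.0.6 with featureCounts, SAMtools 1.6 and bcl2fastq were used, with the builds CHM13 and GRCh38. The sources used here do not give annotation, strand or the handling of multiply mapped reads. The repeat tables were not used.

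Counts were summed over cells and divided by the library total. Genes with 5 CPM in at least 1 library entered every count, 1 CPM was added before log2, and 2-fold was the threshold. With 1 sample per state no p-value was computed. Intervals are exact at 95% (Poisson for levels, conditional binomial for ratios, Clopper-Pearson for shares). A count of 0 allows 3 counts, 0.00802 CPM in ffEPSCs and 0.0113 CPM in ESCs. No cell was removed and doublets were not called. Coordinates, exon lengths and chromosomes come from GENCODE version 29 (GRCh38), in which all 35 members matched by symbol; promoters come from RefSeq (GRCh38.p14). Chromosomes 5, 11, 14, 20 and 22 had a median log2 ratio of 0.25 or more over genes with 20 CPM; in 5 ffEPSC cells the mean shift of these chromosomes and that of chromosome 5 were both under 0.3. Python 3.11.15, numpy 2.4.6, pandas 2.3.3, scipy 1.17.1 and edgeR 4.0.16 (for TMM factors) were used. The pooled ratio was tested on simulated cells with known fold changes, and the other steps were not.

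All members are accounted for; values over cells are given for members past 2-fold and for the 2 per step with the largest absolute ratio. Promoters are those of up to 6 members with the largest absolute ratios among members with 20 CPM and a searched motif (ACAT2 has no entry), and of 2 with the smallest. Genes of other lists are named only past 2-fold, and 1 gene of them is not reported here and stays out of its list. The members and lists were chosen with earlier results of these data known. Alternatives were other scaling, pseudocounts, floors, ways of pooling and choices of cells.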

Additional observations from a re-analysis of the deposited data

How the results depend on the processing

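No result changed direction for the members as a whole. The median log2 ratio of the 35 members, -0.58, was -0.64 with median-of-ratios size factors, -0.62 with TMM factors and -0.60 with 0.1 CPM added. It was -0.61 from the mean of cells, -0.53 from the median of cells, and -0.86 and -0.65 within sets 1 and 3. Leaving out the 4 low-POU5F1 ESC cells gave -0.65, and the 5 ffEPSC cells with little or no chromosome-wide difference gave -0.56. It was -0.52 without the highest cell of each gene and -0.60 at a floor of 20 CPM. The count at least 2-fold lower, 6, was 12 within set 1, 9 within set 3 and 7 without the low-POU5F1 ESC cells. It was 4 with 5 CPM added and 4 from the median of cells. From the mean of cells, from the 5 ffEPSC cells and without the highest cell of each gene it was 5. Without the 5 chromosomes it was 3 of 25, where fewer genes enter, beside 570 of 8880 genes elsewhere. The count at least 2-fold higher, 0, was 1 (SOAT1) within set 1, within set 3 and from those 5 cells. Of the 35, 24 kept their sign, all lower, under every setting that gave a ratio. The others, PMVK, SQLE, LSS, TM7SF2, SREBF2, ACACA, FASN, FADS1, SOAT1, NPC1 and NPC2, turned under at least 1. How many of all genes kept their sign was not computed. The median of the 2 transport and storage genes was 0.44 within set 1, and that of the 3 lysosomal genes, 0.06 over all cells, was -0.85 within set 3. The cause was not tested. On sums of log2 values the median rho of synthesis genes with the sum was 0.42 in ffEPSCs and 0.60 in ESCs, and in ESCs leaving out those 4 cells it was 0.72. With the longest transcript as length, rho of the order was 0.93. No paired analysis was possible because each state is 1 sample and no test was made; for the same reason no replicate could be left out. Within-set values rest on 3 and 2 ffEPSC cells, and the 2 of set 3 are among the 5 with little or no chromosome-wide difference.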
